A study of Mus musculus with 6 samples.

Results

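The 10 genes described here encode the calcineurin-NFAT signalling pathway. They were chosen by name as the rows of the deposited gene count table called *Ppp3ca*, *Ppp3cb*, *Ppp3r1*, *Rcan1*, *Rcan2*, *Cabin1*, *Nfatc1*, *Nfatc2*, *Nfatc3* and *Nfatc4*, 10 of the 56748 genes listed. All 10 were present and all 10 passed the filter on low counts, which left 13888 genes to be tested. Each library came from the heart of 1 mouse, with 3 Pontin cTG animals and 3 of their WT littermates, all male on a C57Bl/6 background that were 10 weeks old when infusion began. Mice of both groups received Ang-II from a mini-osmotic pump for 14 days, at 1.5 mg per kg of body weight each day, so none of the 6 hearts was unstimulated and the effect of Ang-II itself was not measured. In the Pontin cTG animals the mouse α-myosin heavy chain promoter, a promoter of cardiomyocytes, drives a human Pontin cDNA with a flag tag, and the WT littermates lack this transgene. The question of the comparison was whether overexpression of Pontin in cardiomyocytes changed these transcripts in the Ang-II stimulated heart.

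Calcineurin is a calcium- and calmodulin-activated protein phosphatase built from a catalytic A subunit and a regulatory B subunit. When calcium rises, it removes phosphates from NFAT transcription factors, which then enter the nucleus and act with partners such as GATA4 and MEF2 factors. In cardiomyocytes this pathway is a known driver of pathological hypertrophy, and RCAN proteins and CABIN1 bind calcineurin and restrain it. The activity of the pathway is set by phosphorylation and location of proteins, which RNA-seq does not measure. The one transcript of the pathway commonly read as a report of NFAT activity is *Rcan1*, through a promoter inside the gene.

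RefSeq gives *Rcan1* an upstream and an internal start site, and the counts per gene add transcripts from all starts. The 250 bases before each start are shown because the internal start is the one known to respond to NFAT, whose core binding motif is GGAAA. The sequences are from RefSeq on GRCm38.p6, on the minus strand, printed 5′ to 3′ with each GGAAA match of either strand in capitals (TTTCC where the motif lies on the opposite strand), and overlapping matches would have been counted separately. The upstream window lies at chr16:92466170-92466419 and the internal one at chr16:92400079-92400328. Neither window held a base of an annotated *Rcan1* exon in GENCODE M21, and the upstream window lay within an intron of 1 and the internal window within an intron of 4 longer *Rcan1* transcripts.
Rcan1 upstream start: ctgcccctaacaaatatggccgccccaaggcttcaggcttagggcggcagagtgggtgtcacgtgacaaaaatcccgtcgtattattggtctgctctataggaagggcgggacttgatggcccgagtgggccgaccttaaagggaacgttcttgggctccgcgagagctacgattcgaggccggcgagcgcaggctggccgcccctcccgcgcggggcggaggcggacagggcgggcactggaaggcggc
Rcan1 internal start: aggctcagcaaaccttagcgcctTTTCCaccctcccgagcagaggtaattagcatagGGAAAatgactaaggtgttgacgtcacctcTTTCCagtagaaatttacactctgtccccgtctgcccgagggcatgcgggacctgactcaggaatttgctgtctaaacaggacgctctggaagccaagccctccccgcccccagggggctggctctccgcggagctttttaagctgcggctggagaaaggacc
The window before the upstream start held 0 matches and the internal window held 3. At least 1 match was found in 55.6% and at least 3 in 6.39% of the 32851 promoter windows of the same length. Promoter windows were found for 8 of the 10 genes (13 windows), all except *Ppp3ca* and *Nfatc1*. Besides the internal window of *Rcan1*, 3 matches were found for *Ppp3cb*, for the first window of *Nfatc2* and for *Nfatc4*, and 6 of the 13 windows had none. A match describes the letters only, and the lack of one says nothing about binding elsewhere.

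The WT libraries held 12436822 to 13194038 counts each, and the Pontin cTG libraries 14584102 to 16888124. Pontin cTG replicate 2 stood apart from the other 5 libraries, at 50.9 on the first principal component against -23.1 to 16.2. It held the lowest value of the 6 libraries for 30.7% and the highest for 30.2% of all genes tested. *Ruvbl1*, the endogenous gene of Pontin, gave 0.18 (standard error 0.12, adjusted p = 0.999 from edgeR) as its log2 fold change. Its normalised counts were 216, 221 and 217 in WT and 250, 250 and 240 in Pontin cTG hearts (replicates in order). Every Pontin cTG heart was thus above every WT heart, as in 4.7% of all genes. Whether reads of the human transgene were counted at this mouse gene was not tested. In every library the cardiomyocyte markers (*Myh6*, *Tnnt2*, *Tnni3*, *Actn2*, *Ryr2* and *Actc1*) summed to between 24900 and 30669 TPM (counts divided by gene length, then scaled to the same total in each library). Singly, 2 of the 6 had a log2 fold change above 0 and 4 below, and 0 passed an adjusted p of 0.05 in edgeR or DESeq2. All Pontin cTG values were above all WT values for *Tnni3* (4.7% of all genes) and below them for *Actc1* (3.63% of all genes). The 6 endothelial markers were all highest in Pontin cTG replicate 2, with a sum of 500.01 TPM against 293 to 364 TPM in the other libraries. The macrophage markers summed to 135 to 231 TPM in WT and 104 to 190.4 TPM in Pontin cTG hearts, and 5 of the 6 had a log2 fold change below 0. An adjusted p under 0.05 in edgeR or DESeq2 was reached by 0 of the 6. An unadjusted p under 0.05 in edgeR was reached by 1, *Mrc1* (2.05% of all genes). All Pontin cTG values were below all WT values for 1, *Csf1r* (3.63% of all genes). The part of these cell types in the values below was not tested. As these were whole hearts, fewer cells of a type and less RNA per cell cannot be told apart.

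In the hearts of both groups *Rcan2* and *Rcan1* were the most abundant of the 10 transcripts, and the NFAT factors and *Cabin1* the least. Levels of different genes were compared as TPM because it corrects for length, and the length used is that of the deposited table, which includes exons the heart may not use. *Rcan2* ranged from 183 to 295 TPM over the 6 libraries, with a mean of 274 ± 7.28 for WT and of 249 ± 58.2 for Pontin cTG (SD, n = 3 each). *Rcan1* ranged from 106 to 149 TPM, with a mean of 133 ± 9.59 for WT and of 133 ± 23.3 for Pontin cTG (SD, n = 3 each). Both lay in the upper part of the distribution, at percentiles 97.8 and 95.9 of all genes tested. The regulatory subunit *Ppp3r1* followed at 36.8 to 55.6 TPM, then the catalytic subunits *Ppp3cb* at 17.5 to 23.0 TPM and *Ppp3ca* at 14.2 to 16.2 TPM. No 2 neighbours among these 5 genes overlapped, so the order of their levels was the same in each of the 6 hearts. Below them, *Nfatc1* (5.08 to 7.67 TPM), *Nfatc3* (4.98 to 6.52 TPM) and *Cabin1* (4.17 to 6.75 TPM) overlapped and could not be ordered. *Nfatc2* (2.78 to 3.94 TPM) was below these 3 genes, and *Nfatc4* (1.27 to 2.79 TPM) was the lowest, at percentile 17.8. The ranges of *Nfatc2* and *Nfatc4* met at their ends, though *Nfatc2* was the higher of the pair in every library.

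**Figure D1:**
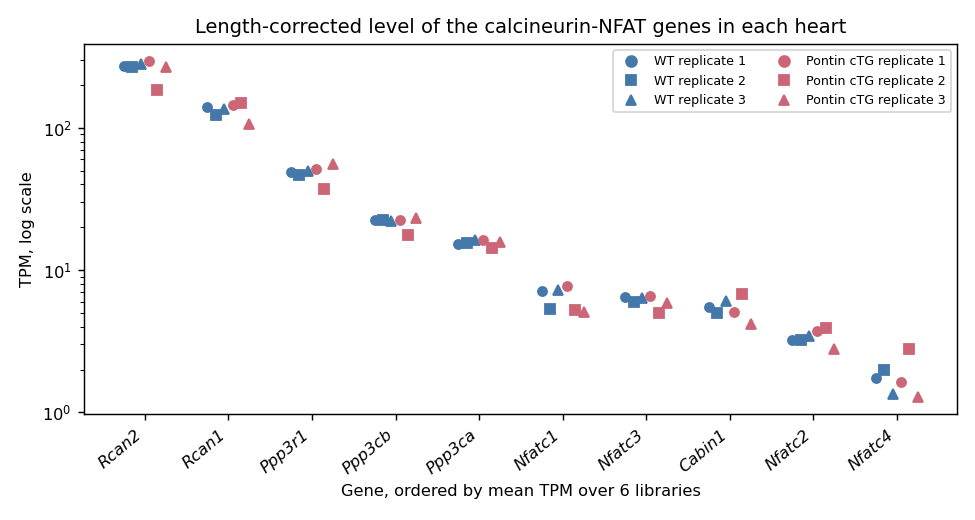
Level of each calcineurin-NFAT gene in TPM (log scale) in the 6 libraries, with WT hearts in blue and Pontin cTG hearts in red and the replicate shown by the marker. *Rcan2* and *Rcan1* sit above 100 TPM in every library and *Nfatc4* below 3 TPM, and within each gene the colours overlap.

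The composition of each gene family within a library does not depend on how libraries are scaled. Of the TPM of the catalytic subunits, *Ppp3cb* held 40.1 ± 0.75% in WT against 39.1 ± 2.15% in Pontin cTG hearts, *Ppp3ca* 28.1 ± 1.08% and 28.8 ± 0.89%, and *Ppp3cc*, a further catalytic subunit, 31.8 ± 1.16% and 32.1 ± 1.26% (SD, n = 3 each). No difference in these shares was detected between the groups (two-sided exact permutation tests, p = 0.4 or higher, where 0.1 is the smallest that 3 against 3 allow). The inhibitors varied more between Pontin cTG hearts. In the WT hearts *Rcan1* took 33.5%, 30.8% and 32.0% of the RCAN total, against 32.1%, 44.0% and 27.9% in the Pontin cTG hearts (replicates in order, here and below). The ratio of *Rcan2* to *Rcan1* was 1.94, 2.19 and 2.06 in WT hearts and 2.06, 1.23 and 2.52 in Pontin cTG hearts, so the WT hearts lay between the lowest and highest Pontin cTG hearts (two-sided exact permutation test, p = 0.8). Among the calcineurin-dependent NFAT factors, *Nfatc1* and *Nfatc3* held the larger shares in both groups, with 36.7 ± 3.84% and 35.2 ± 0.86% for WT and 34.6 ± 4.26% and 34.0 ± 4.90% for Pontin cTG (SD, n = 3 each). *Nfatc2* held 18.6 ± 1.04% in WT and 20.3 ± 2.61% in Pontin cTG hearts, and *Nfatc4* 9.58 ± 2.32% and 11.1 ± 4.65% (SD, n = 3 each). For the NFAT shares the exact permutation p (two-sided) was 0.5 or higher.

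**Figure D2:**
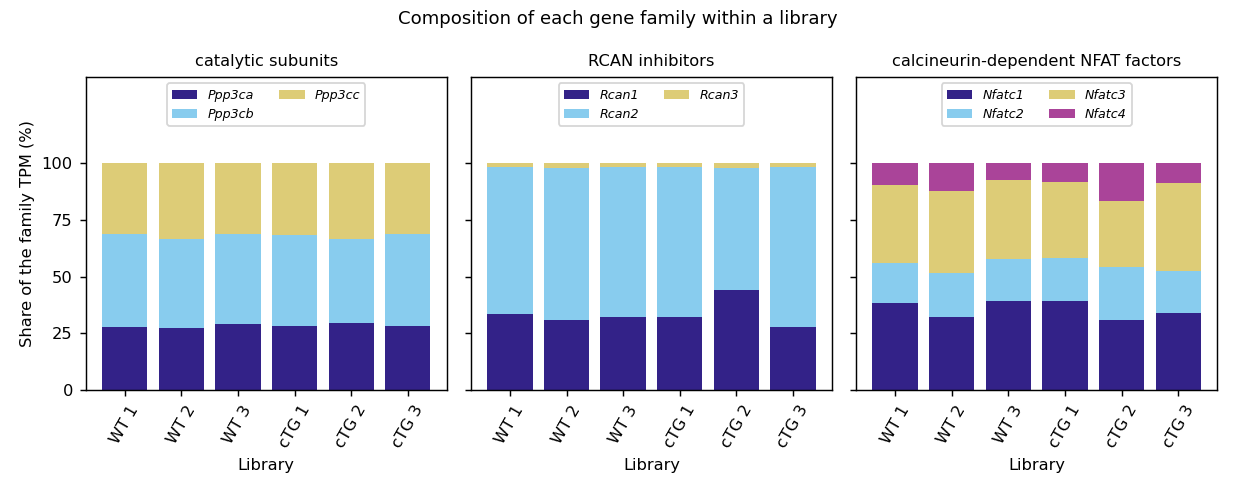
Share (%) of the summed TPM of a family held by each of its genes, 1 bar per library (WT 1 to 3, then Pontin cTG 1 to 3). The catalytic subunits keep nearly the same proportions in all 6 bars, while *Rcan1* takes 44.0% of the RCAN total in Pontin cTG replicate 2 and 27.9% in replicate 3.

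No difference between Pontin cTG and WT hearts was detected for any of the 10 genes. With edgeR's quasi-likelihood test 0 of the 10 passed an adjusted p of 0.05, against 0% of all 13888 genes, and 0 of the 10 had an unadjusted p under 0.05, against 2.05% of all genes. DESeq2 called 0 of the 10 as well. The smallest unadjusted p among them was 0.450 (*Nfatc3*), and the adjusted p of all 10 was 0.999. The groups overlapped for all 10 genes: in 0 of the 10 were all Pontin cTG values above all WT values, as in 4.7% of all genes, and in 0 of the 10 were they below, as in 3.63%. Of the 10 genes, 8 had a log2 fold change below 0 and 2 above, with a median of -0.058 against 0.0013 over all genes tested. Without Pontin cTG replicate 2, 5 of the 10 were below 0 and the median was 0.0012. The values of each gene follow in normalised counts, which are scaled by the TMM method and are not corrected for length, with positions as the deposited table gives them (GRCm39 in the submitters' notes).

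The catalytic and regulatory subunits of calcineurin had nearly equal WT and Pontin cTG means, with replicates 2 and 3 of Pontin cTG at the ends of the range. *Ppp3ca* (ENSMUSG00000028161, chromosome 3, 136375885 to 136643488, plus strand), the α isoform of the catalytic subunit, had 1037, 978 and 1062 normalised counts in WT hearts and 1030, 885 and 1094 in Pontin cTG hearts. *Ppp3cb* (ENSMUSG00000021816, chromosome 14, 20549432 to 20596641, minus strand), the β isoform, which is the one known to be required for the hypertrophic response in mice, had 1351, 1257 and 1270 in WT and 1267, 962 and 1403 in Pontin cTG hearts. For both isoforms the Pontin cTG group contained the lowest heart (replicate 2) and the highest (replicate 3), with the WT hearts in between. The log2 fold change was -0.032 (standard error 0.13, 95% interval -0.33 to 0.26) for *Ppp3ca* and -0.094 (standard error 0.16, 95% interval -0.46 to 0.27) for *Ppp3cb*. On a linear scale these intervals run from 0.796 to 1.20 and from 0.730 to 1.20 times the WT level. They give the differences compatible with the data of 3 hearts per group and are not a limit of detection. *Ppp3r1* (ENSMUSG00000033953, chromosome 11, 17109263 to 17150375, plus strand), the regulatory B subunit, which binds calcium, had 1062, 951 and 1059 in WT and 1052, 742 and 1241 in Pontin cTG hearts. Here too replicates 2 and 3 of Pontin cTG were the ends of the range, 1.67-fold apart, while the WT hearts differed by 1.12-fold. Its log2 fold change was -0.017 (standard error 0.19, 95% interval -0.44 to 0.41), and it was 0.16 without Pontin cTG replicate 2 and -0.19 without replicate 3. *Ppp3r1* overlaps *Dnaaf10* on the same strand, whose log2 fold change was -0.16 (standard error 0.19), and how reads in the overlap were assigned is not given in the sources used here.

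Of the inhibitors, *Rcan1*, the feedback inhibitor induced by NFAT, had nearly equal means in the groups. *Rcan1* (ENSMUSG00000022951, chromosome 16, 92188841 to 92267755, minus strand) had 2936, 2402 and 2759 normalised counts in WT hearts and 2826, 2867 and 2260 in Pontin cTG hearts. A WT heart was the highest and a Pontin cTG heart (replicate 3) the lowest, and the other Pontin cTG hearts lay between WT replicates 1 and 3. The log2 fold change was -0.026 (standard error 0.15), with a 95% interval of -0.38 to 0.32, or 0.770 to 1.25 times the WT level. Counts per gene cannot show whether the share of the internal start, whose promoter is printed above, differed. *Rcan2* (ENSMUSG00000039601, chromosome 17, 44112242 to 44350407, plus strand), the related inhibitor that is abundant in heart and brain, had 8076, 7441 and 8072 in WT and 8250, 5002 and 8076 in Pontin cTG hearts. A single heart, Pontin cTG replicate 2, was low at 0.636 times the WT mean, and the other Pontin cTG hearts were at 1.05 and 1.03 times it. The log2 fold change of *Rcan2* was -0.15 (standard error 0.20, 95% interval -0.60 to 0.31), and 0.054 without that library. *Cabin1* (ENSMUSG00000020196, chromosome 10, 75481946 to 75600175, minus strand), which encodes a large nuclear protein that binds calcineurin and MEF2 factors, had 456, 389 and 486 in WT and 393, 512 and 350 in Pontin cTG hearts. In this gene replicate 2 was the highest Pontin cTG heart, replicate 1 lay near the low end of the WT range, and replicate 3 was below every WT heart. The log2 fold change of *Cabin1* was -0.084 (standard error 0.17, 95% interval -0.47 to 0.30), -0.26 without replicate 2 and 0.030 without replicate 3.

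The NFAT factors had mean normalised counts from 64.2 (*Nfatc4*, WT) to 481 (*Nfatc3*, WT), and *Nfatc4* had the widest interval of the 10 genes. *Nfatc3* (ENSMUSG00000031902, chromosome 8, 106785472 to 106857169, plus strand), a factor linked to calcineurin-driven hypertrophy in mice, had 510, 444 and 489 normalised counts in WT hearts and 489, 365 and 477 in Pontin cTG hearts. Only Pontin cTG replicate 2 lay outside the WT range, and the log2 fold change was -0.12 (standard error 0.15, 95% interval -0.45 to 0.22). *Nfatc1* (ENSMUSG00000033016, chromosome 18, 80649420 to 80756286, minus strand), known for its role in the endocardium and in valve formation, had 359, 252 and 353 in WT and 366, 243 and 262 in Pontin cTG hearts. The hearts formed a high and a low set, each with hearts of both groups, and the log2 fold change was -0.15 (standard error 0.20, 95% interval -0.60 to 0.31). It was the single gene of the 10 that kept its sign in all 13 alternative settings, though leaving out Pontin cTG replicate 1 gave -0.34 and leaving out replicate 2 gave -0.035. The summed level of 3 endocardial markers (*Npr3*, *Cytl1* and *Plvap*) ran from 17.6 to 37.7 TPM in WT and from 15.3 to 30.4 TPM in Pontin cTG hearts, and its part in the values of *Nfatc1* was not tested. *Nfatc2* (ENSMUSG00000027544, chromosome 2, 168318330 to 168443577, minus strand), first known from T cells, had 231, 216 and 237 in WT and 252, 260 and 204 in Pontin cTG hearts. The WT hearts lay between the Pontin cTG hearts, and the log2 fold change was 0.064 (standard error 0.14, 95% interval -0.26 to 0.39). Of 8 T and B lymphocyte markers, *Cd3e* and *Ms4a1* among them, only *Cd4* was high enough to be tested, and the 8 summed to 1.69 to 2.77 TPM per library. *Nfatc4* (ENSMUSG00000023411, chromosome 14, 56060601 to 56071400, plus strand), the factor known to bind GATA4, had only 46 to 118 counts per library. After normalisation it had 68.3, 72.9 and 51.4 in WT and 60.5, 101 and 51.1 in Pontin cTG hearts, with replicate 2 alone above the WT range. The log2 fold change was 0.14 (standard error 0.30, 95% interval -0.53 to 0.82), and -0.20 without replicate 2, so that a difference of up to 1.77-fold upwards or to 0.691 times the WT level was within the interval.

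**Figure D3:**
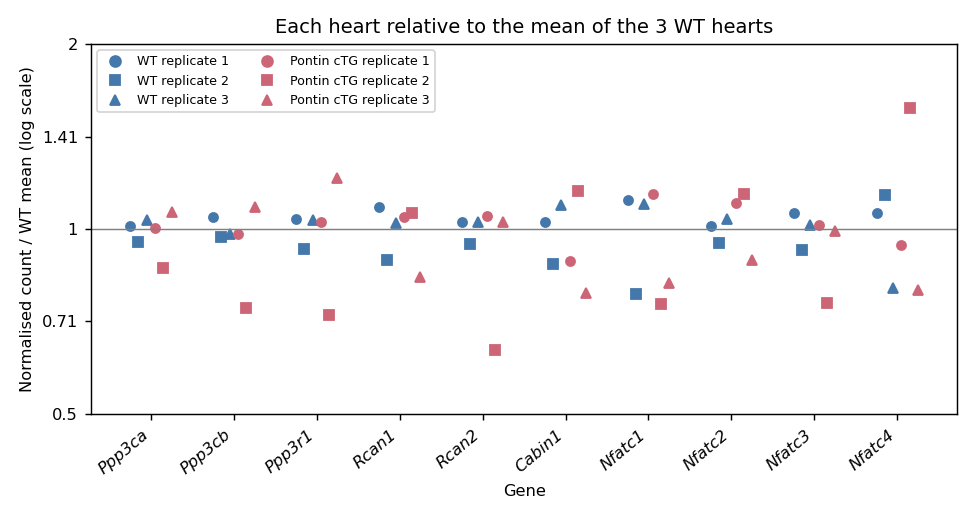
Normalised count of each gene in each heart divided by the mean of the 3 WT hearts (log scale, 1 marks the WT mean). Pontin cTG replicate 2 (red squares) reaches 0.636 for *Rcan2* and 1.57 for *Nfatc4*, while the other hearts lie between 0.785 and 1.21.

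The spread between hearts was larger in the Pontin cTG group for 10 of the 10 genes, where 69.5% of all genes tested had the larger SD in that group. Pontin cTG replicate 2 was the lowest of the 6 libraries for *Ppp3ca*, *Ppp3cb*, *Ppp3r1*, *Rcan2*, *Nfatc1* and *Nfatc3* and the highest for *Cabin1*, *Nfatc2* and *Nfatc4*. That is 9 of 10 genes at an end of the range in this library, where 30.7% of all genes had their lowest and 30.2% their highest value there. Pontin cTG replicate 3 was highest for the 3 calcineurin subunits and lowest for *Cabin1*, *Nfatc2* and *Nfatc4*, the opposite end from replicate 2 in each, and it was also lowest for *Rcan1*. The levels in replicates 2 and 3 of Pontin cTG fell with gene length, more so in replicate 2. For the 3473 shortest genes (up to 2610 bases) the median difference of replicate 2 from the mean of the other 5 libraries was 0.18 on the log2 scale. For the 3472 longest (6737 bases or more) it was -0.14. Replicate 3 had 0.059 and -0.071. The WT hearts and Pontin cTG replicate 1 had -0.061 to -0.019 for the shortest and 0.042 to 0.088 for the longest genes. The mean used for these libraries includes replicate 2. Of the 10 genes, 6 were among these longest genes and 0 among the shortest. Of these 6, *Ppp3ca*, *Ppp3cb*, *Nfatc1* and *Nfatc3* were lowest in Pontin cTG replicate 2, and *Cabin1* and *Nfatc2* were highest there. The other genes lowest in that library, *Ppp3r1* and *Rcan2*, had lengths of 3228 and 4372 bases. The part of length in these values was not tested.

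**Figure D4:**
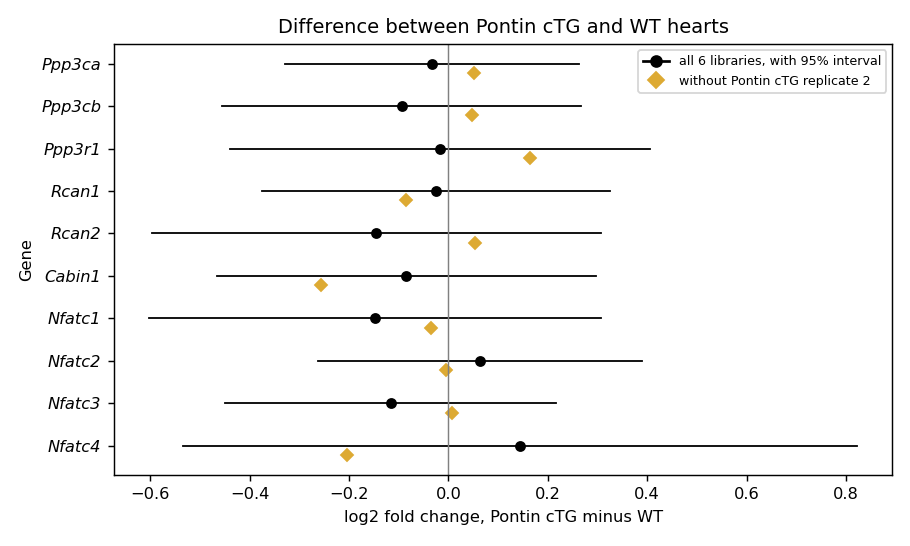
Log2 fold change of each gene in Pontin cTG relative to WT hearts, with all 6 libraries (black points, bars for the 95% interval) and without Pontin cTG replicate 2 (yellow diamonds). All 10 intervals include 0, and the yellow point lies on the other side of 0 from the black one for 7 genes.

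The genes around calcineurin and NFAT likewise held no call. Of 47 further genes of the pathway, 42 were tested and 0 passed an adjusted p of 0.05 in edgeR or in DESeq2. Over all genes, edgeR called 0 of 13888 and DESeq2 called 1. Of the 42, 14 were above and 28 below 0, with a median log2 fold change of -0.071. Of all 13888 genes, 6976 were above and 6912 below 0, with a median of 0.0013. Among 4 tested calcineurin subunits and calmodulins the log2 fold changes ran from -0.060 (*Ppp3cc*) to 0.077 (*Calm2*, a gene of calmodulin, which carries the calcium signal to calcineurin). *Ppp3r2*, a regulatory subunit known from testis, had 0 counts in all 6 libraries. Of 6 tested channels and sensors of calcium entry, 2 were above and 4 below 0, and the lowest log2 fold change was -0.15 (*Cacna1h*). *Trpc6*, a channel gene known as an NFAT target, had 1 to 6 counts per library and was not tested.

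Of 11 tested inhibitors, anchoring proteins and other modulators of calcineurin, 5 were above and 6 below 0. *Akap6*, which encodes mAKAP, a scaffold that holds calcineurin and NFATc3 at the nuclear envelope of cardiomyocytes, was the only one of the 42 genes with an unadjusted p under 0.05 (2.05% of all genes). It had 3218, 3391 and 3105 normalised counts in WT hearts and 2848, 1461 and 2288 in Pontin cTG hearts, so that every Pontin cTG heart was below every WT heart, as in 3.63% of all genes. The log2 fold change of *Akap6* was -0.56 (standard error 0.22, unadjusted p = 0.0348, adjusted p = 0.999 from edgeR), and -0.33 without Pontin cTG replicate 2 (standard error 0.12, adjusted p = 0.889). Over all 13 alternatives its adjusted p ran from 0.844 to 0.9998. *Lmcd1*, an activator of calcineurin signalling in the heart, had the largest positive value of the list, 0.21 (standard error 0.14). *Myoz2* (calsarcin-1), which tethers calcineurin to the sarcomere, and *Csrp3* had 0.023 and -0.0034.

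The kinases that phosphorylate NFAT and return it to the cytoplasm were 11, all tested, with 4 above and 7 below 0 and a median of -0.083 on the log2 scale. *Gsk3b* had the smallest p (0.298) with 1084, 948 and 1146 normalised counts in WT and 1103, 592 and 993 in Pontin cTG hearts. Its log2 fold change was -0.24 (standard error 0.22). For 10 of the 11 kinases the lowest heart was Pontin cTG replicate 2, and *Csnk1e* was the exception. Of the 10 nuclear partners, 9 were below 0 (median -0.15), where 6912 of all 13888 genes were below 0. For 8 of these 10 the lowest heart was again Pontin cTG replicate 2, where 30.7% of all genes tested had their lowest value. *Mef2c*, a MADS-box factor of muscle genes, had 1236, 1121 and 1198 in WT and 1067, 867 and 1003 in Pontin cTG hearts. Every Pontin cTG heart was below every WT heart, as in 3.63% of all genes. The log2 fold change of *Mef2c* was -0.28 (standard error 0.13, unadjusted p = 0.0659, adjusted p = 0.999 from edgeR), and -0.19 without replicate 2. *Hdac5*, a class II histone deacetylase that represses MEF2 factors, was the single partner above 0, at 0.17 (standard error 0.15).

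**Figure D5:**
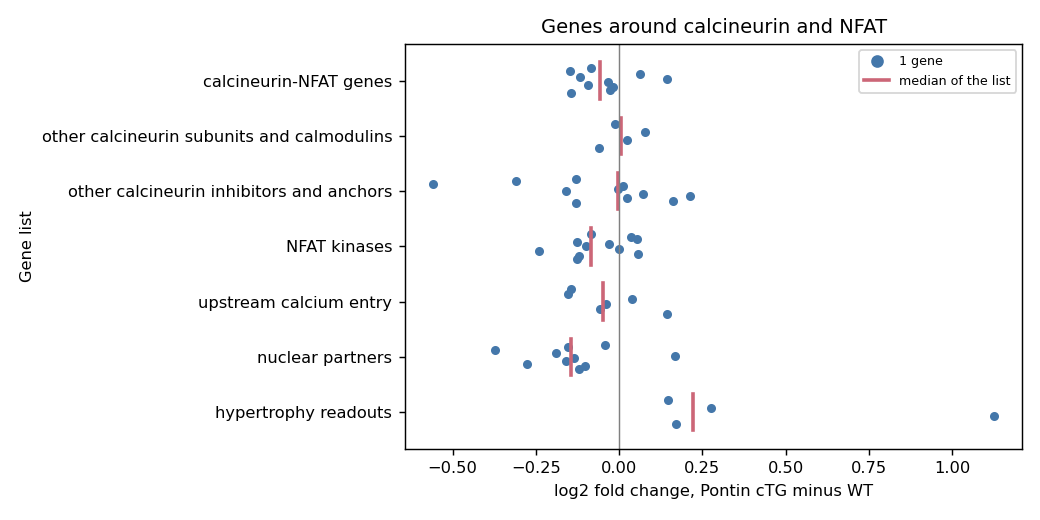
Log2 fold change (Pontin cTG relative to WT) of each tested gene in 7 lists, with 1 point per gene and a red bar for the median of the list. The medians of the first 6 lists lie between -0.15 and 0.0055, and *Akap6* at -0.56 and *Nppa* at 1.13 are the outermost points.

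The 4 transcripts commonly used as readouts of hypertrophy varied widely between hearts. *Nppa*, which encodes ANP, had 1551, 858 and 1842 normalised counts in WT and 1205, 7716 and 360 in Pontin cTG hearts, a 21.4-fold range. *Myh7*, the fetal β-myosin heavy chain, had 7476, 11962 and 3039 in WT and 3310, 20807 and 3080 in Pontin cTG hearts. Pontin cTG replicate 2 was the highest library for all 4 (*Nppa*, *Nppb*, *Myh7* and *Acta1*), and replicate 3 the lowest for *Nppa*, *Nppb* and *Acta1*. The log2 fold changes were 1.13 (standard error 0.91), 0.17 (standard error 0.35), 0.28 (standard error 0.77) and 0.15 (standard error 0.29) in that order, with an adjusted p of 0.999 each in edgeR. All 4 changed sign without replicate 2, to -0.86, -0.41, -1.23 and -0.11. *Rcan1* in the same 2 hearts was 2867 in replicate 2, within the WT range, and 2260 in replicate 3, the lowest of the 6 hearts.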

How the data were processed

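RNA from 6 hearts was sequenced, 1 library per mouse. The authors deposited whole-number counts per Ensembl gene without normalisation. The paper's methods name Trimmomatic, STAR, mm10 and Gencode M25, whereas the submitters' processing notes name fastp, HISAT2, featureCounts and GRCm39 (mm39). Gene positions are those of the deposited table and matched GENCODE M21 for 0 of the 10 genes. M21 is on GRCm38, the build that mm10 also names. *Ppp3ca* starts at 136670124 there and at 136375885 in the deposited table. The positions therefore did not match the build of the paper's account, though M25 itself was not compared. GRCm39 is the build in the notes. Which aligner and counting tool made these counts, and whether strand was used, cannot be told.

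Genes were kept where filterByExpr (minimum count 10) passed them, scaled by TMM, and tested in edgeR 4.0.16 (robust quasi-likelihood, genotype the only term, R 4.3.3), with Benjamini-Hochberg adjustment. Standard errors are the log2 fold change divided by the square root of F, and 95% intervals use the test's degrees of freedom. TPM was computed from the table's gene lengths. p-values for single shares and ratios are from exact permutation tests. Scripts were first tested on simulated data. Alternatives were DESeq2 1.42.0, its size factors, library size alone, other filters, a replicate block, limma-voom (3.58.1) with quality weights and leaving out each library. All 10 genes are named, and of each other list the lowest-p gene per direction, the readouts, those at the ends of a range, and others chosen after their values were seen. The members and lists were chosen with earlier results of these data known. Some results are not reported here.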

Additional observations from a re-analysis of the deposited data

How the results depend on the processing

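Over 13 alternative settings, 0 of the 10 calcineurin-NFAT genes passed an adjusted p of 0.05 in any of them, and 0 of the other pathway genes did so in DESeq2. The adjusted p of the 10 genes ran from 0.844 to 0.9998. The median log2 fold change of the 10 genes, -0.058 in the main test, moved by less than the spread between replicates (SD 0.132) in all settings. That spread is wider than the median itself, so staying within it does not show that the sign held. The median ran from -0.11 (WT replicate 2 left out) to 0.0012 (Pontin cTG replicate 2 left out), where its sign changed. It was -0.071 with the replicate block and -0.0027 when WT replicate 3 was dropped. Libraries of the same replicate number were not treated as pairs in the main test, since nothing names a shared litter. The deviations of same-numbered libraries correlated at 0.077, 0.43 and 0.19, and those of libraries with different numbers at -0.35 to 0.25. With so few libraries these values cannot decide whether the numbers mark pairs. Over all genes, DESeq2 called 1 gene, the test without a low-count filter 3, limma-voom with quality weights 3, and the fits that left out a library 0 to 3.

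Of 130 recomputed log2 fold changes, 112 kept their sign and 18, in 9 genes, did not. With library size alone *Ppp3r1* was 0.00070 and *Rcan1* 0.012. With limma-voom *Ppp3ca* was 0.0034, *Ppp3r1* 0.049, *Nfatc4* -0.10, *Nppa* -0.72, *Nppb* -0.39, *Myh7* -0.74 and *Acta1* -0.025, and with the replicate block *Myh7* was -0.11. Leaving out single libraries gave ranges of -0.099 to 0.051 for *Ppp3ca*, -0.21 to 0.047 for *Ppp3cb*, -0.19 to 0.16 for *Ppp3r1*, -0.10 to 0.077 for *Rcan1*, -0.26 to 0.054 for *Rcan2*, -0.26 to 0.030 for *Cabin1*, -0.34 to -0.035 for *Nfatc1*, -0.0048 to 0.17 for *Nfatc2*, -0.18 to 0.0072 for *Nfatc3*, -0.20 to 0.33 for *Nfatc4*, -0.86 to 1.65 for *Nppa*, -0.41 to 0.40 for *Nppb*, -1.23 to 0.78 for *Myh7* and -0.11 to 0.45 for *Acta1*. The upper or lower end without Pontin cTG replicate 2 applied to *Ppp3ca*, *Ppp3cb*, *Ppp3r1*, *Rcan2*, *Cabin1*, *Nfatc1*, *Nfatc2*, *Nfatc3*, *Nfatc4* and the 4 readouts. The cause of these reversals was not tested. The alternatives for *Akap6*, *Mef2c*, *Nppa*, *Nppb*, *Myh7* and *Acta1*, and the count of genes below 0, were chosen after seeing the data.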
